A study of Mus musculus with 16 samples.

Results

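Granule cells are the small excitatory neurons that fill the inner layer of the cerebellar cortex, and the set described here holds 10 genes that are used as their transcription factors or markers: Neurod1, Crtam, Barhl1, Barhl2, Atoh1, Pax6, Eomes, Exph5, Etv1 and Cadps2. Each was read through the probe sets that the platform annotation assigns to that gene symbol and to no other. By that rule 9 of the 10 genes were represented, by 16 probe sets, out of 18194 genes and 34958 probe sets with a single symbol and 45101 probe sets in all. Etv1 was the exception, because the 3 probe sets that name it also name a second gene, so no value is given for it.

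The arrays compared SINE KO mice with wild-type (WT) littermates. The SINE KO animals were homozygous for a CRISPR/Cas9-made deletion of 4 bp just behind the presumed start codon in the SINE-derived exon of a brain-specific fusion isoform of Ppargc1a (PGC-1α), came from 1 founder line on C57BL/6J, and kept the reference isoform of the gene. In each of 8 groups (KO or WT, female or male, cerebellum or rest of brain) 2 arrays were hybridised, 16 in all, with RNA from dissected tissue from which, per the methods, brain stem remnants had been cut away. Brain stem genes were nevertheless detected on 3 of the female cerebellum arrays, as given below. The animals were age-matched, and the labels give no age. The labels leave unsaid whether same-numbered arrays of the 2 brain parts shared a mouse. They also leave unsaid whether the replicates of a group were different mice, while the methods give 2 independent specimens per group. The p-values of Fisher's exact test treat the arrays as independent and apply to these arrays. The deposited value for a probe set is not a brightness but 1 of 5 detection levels. The highest was read as detected, the next as marginal and the remaining 3 as not detected, a reading taken from the values that no source states. Results are therefore given as the number of arrays on which a probe set was detected, with no fold change.

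Granule cells arise from the rhombic lip, where progenitors are specified by the bHLH factor Atoh1, divide in the external granular layer, and migrate inwards as they differentiate. Barhl1 and Barhl2 are homeobox factors of that lineage, Pax6 is a paired-box and homeobox factor of progenitors and mature granule cells, and Neurod1 is the bHLH factor of their differentiation and survival. Eomes (Tbr2) is a T-box factor that marks unipolar brush cells, a neighbouring excitatory interneuron from the same lip, and in the forebrain marks intermediate progenitors of cortex and hippocampus. Etv1 is an ETS factor of maturing granule cells, Cadps2 primes dense-core vesicles for release, Exph5 is an effector of Rab27 GTPases, and Crtam is an immunoglobulin-superfamily adhesion molecule first known from T cells.

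Because the regulators among these genes bind short DNA motifs, start-site windows were read from RefSeq (GRCm38.p6) for the homeobox pair (for Barhl1, 1 of 2 windows) that divided the brain parts completely, for Eomes, which divided them in part, and for Neurod1, which was detected on every array. The table of windows held 9 of the 10 genes, with 12 windows. Each window is 300 bases long, 250 before and 50 after the start, and is printed 5′ to 3′ on the gene's strand. Capitals mark the E-boxes CAGCTG and CAGATG and the homeodomain cores TAATTA and TAATTG, found on either strand. Other forms of the E-box were neither searched nor marked.
Barhl1, chr2:28916619-28916918, minus strand: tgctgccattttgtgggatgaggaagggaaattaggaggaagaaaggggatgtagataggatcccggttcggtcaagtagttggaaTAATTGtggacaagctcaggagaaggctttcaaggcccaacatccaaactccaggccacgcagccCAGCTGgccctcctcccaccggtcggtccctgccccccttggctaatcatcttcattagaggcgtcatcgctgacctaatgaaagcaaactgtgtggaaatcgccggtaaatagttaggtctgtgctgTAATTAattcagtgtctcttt
Barhl2, chr5:106458117-106458416, minus strand: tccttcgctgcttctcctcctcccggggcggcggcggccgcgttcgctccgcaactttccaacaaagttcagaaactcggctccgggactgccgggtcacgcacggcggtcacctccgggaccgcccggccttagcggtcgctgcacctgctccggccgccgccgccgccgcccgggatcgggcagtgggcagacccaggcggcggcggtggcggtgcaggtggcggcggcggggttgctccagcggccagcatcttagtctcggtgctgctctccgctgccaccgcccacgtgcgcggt
Eomes, chr9:118477939-118478238, plus strand: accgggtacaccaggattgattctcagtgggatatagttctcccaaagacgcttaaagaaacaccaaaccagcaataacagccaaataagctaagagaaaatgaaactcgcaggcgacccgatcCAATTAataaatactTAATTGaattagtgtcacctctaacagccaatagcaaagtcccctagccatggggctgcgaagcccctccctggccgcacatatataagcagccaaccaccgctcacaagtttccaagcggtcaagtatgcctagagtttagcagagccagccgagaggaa
Neurod1, chr2:79456587-79456886, minus strand: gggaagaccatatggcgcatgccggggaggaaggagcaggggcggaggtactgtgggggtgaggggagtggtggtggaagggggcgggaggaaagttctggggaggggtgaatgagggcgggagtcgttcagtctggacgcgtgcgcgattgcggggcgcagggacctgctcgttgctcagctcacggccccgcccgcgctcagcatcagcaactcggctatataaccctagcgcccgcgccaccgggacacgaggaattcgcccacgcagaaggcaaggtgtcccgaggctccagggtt

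The motifs searched were the E-boxes CAGCTG and CAGATG, the homeodomain cores TAATTA and TAATTG, and the T-box core GGTGTGA, each on both strands. The Barhl1 window held 1 CAGCTG, 1 TAATTA and 1 TAATTG, the Eomes window held 2 TAATTG cores, and the windows of Barhl2 and Neurod1 held none of the motifs searched. Among all 32851 windows of this length, 16.3% held CAGCTG, 17.2% CAGATG, 5.29% TAATTA, 8.0% TAATTG and 3.98% GGTGTGA. GC content was 73.7% in the Barhl2 window, 66.7% in the Neurod1 window, 50.3% in the Barhl1 window and 47.3% in the Eomes window. The median over all windows was 52.7%. These matches describe the letters of the windows and carry no information on binding.

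Across the 16 arrays the probe sets fell into 3 classes. Detection on all 16 arrays was found for 5 of them, namely both Neurod1 probe sets, the Pax6 probe set 1419271_at, and the single probe sets of Exph5 and Cadps2. The Barhl1 probe set 1418811_at was detected on none. The remaining 10 were detected on some arrays, and it is these that carry the comparisons below. Of all probe sets, 21652 were detected on all arrays, 12180 on none and 11269 on some. Of the 256 values of the granule cell probe sets, 5 were marginal.

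**Figure D1:**
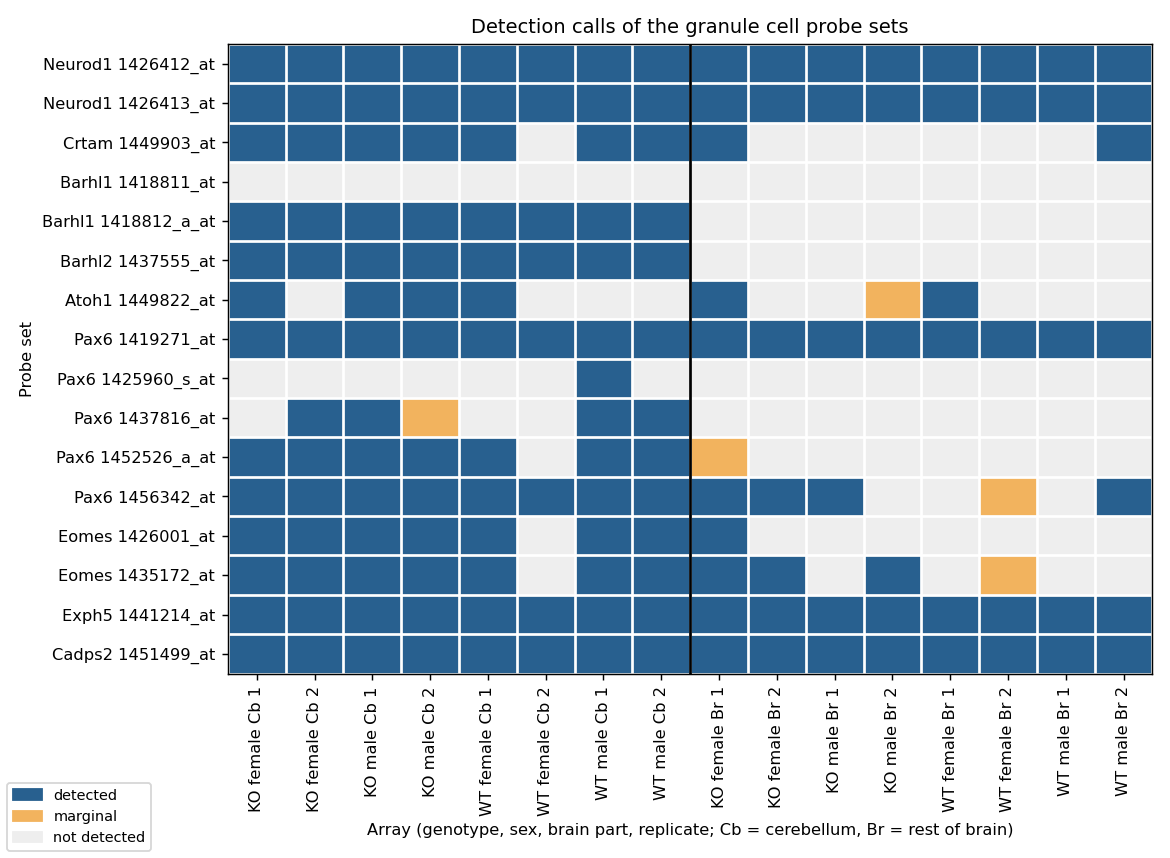
Detection level of each granule cell probe set (rows) on each of the 16 arrays (columns; cerebellum left of the line, rest of brain right of it), dark for detected, orange for marginal, pale for not detected. Barhl1 1418812_a_at and Barhl2 1437555_at were detected on 8 of 8 cerebellum and 0 of 8 rest-of-brain arrays, and WT female cerebellum replicate 2 lacked 4 of the probe sets that all other cerebellum arrays had.

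Cerebellum against rest of brain was the comparison in which these genes stood apart. None of the 16 probe sets was detected on fewer cerebellum than rest-of-brain arrays, 10 (62.5%) were detected on more and 6 on equally many. Of all 45101 probe sets, 4347 (9.64%) were detected on more cerebellum arrays and 5717 on fewer. The median difference was 3 arrays for the granule cell probe sets and 0 for all probe sets, most of which were detected on all arrays or on none. In whole tissue, fewer cells of a type and less RNA per cell cannot be told apart.

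Arrays of a brain part differed in these genes and in markers of other cells. On the 4 KO cerebellum arrays 13, 13, 14 and 13 of the 16 probe sets were detected (females, then males), against 13, 8, 14 and 13 on the 4 WT cerebellum arrays. On the 4 KO rest-of-brain arrays the counts were 10, 7, 6 and 6, against 6, 5, 5 and 7 on the 4 WT rest-of-brain arrays. WT female cerebellum replicate 2, with 8, thus lay inside the rest-of-brain range of 5 to 10, and KO female rest of brain replicate 1, with 10, was the highest of its brain part. Of 13 Purkinje cell probe sets, WT female cerebellum replicate 2 detected 9 where every other cerebellum array detected 13, and KO female rest of brain replicate 1 detected 13 where the other rest-of-brain arrays detected 8 to 11. Forebrain markers moved too: 6 of 11 probe sets were detected on WT female cerebellum replicate 2 and 2 to 3 on the other cerebellum arrays. Total detected probe sets spanned 25517 to 28155 over the 16 arrays. Brain stem markers were uneven as well. Of 7 probe sets for Tph2, Slc6a4, Hoxa5, Hoxb3 and Hoxb5, 7 and 6 were detected on the 2 KO female cerebellum arrays, against 3 and 0 on the 2 WT female cerebellum arrays. All 4 male cerebellum arrays detected 0, and rest-of-brain arrays 0 to 3. The part of tissue composition in the results that follow was not tested. Results are given without the 2 arrays that stand apart in granule and Purkinje cell genes where that changes a call. The same is done for the 3 cerebellum arrays with brain stem genes. The 2 arrays were picked in part by the granule cell calls, so a lower p without them is no separate support.

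**Figure D2:**
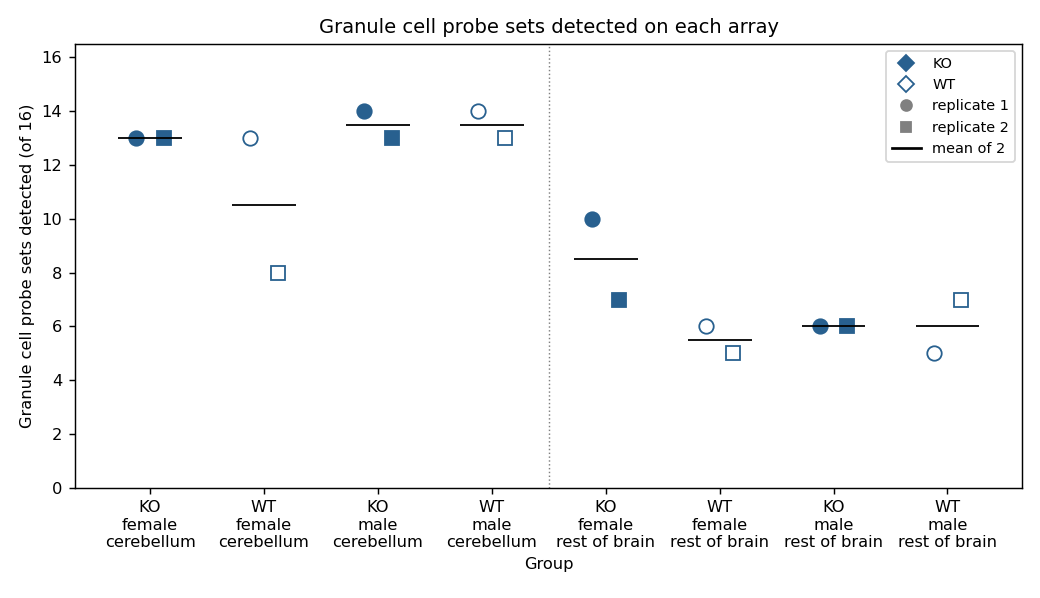
Number of the 16 granule cell probe sets detected on each array, by group, with KO filled and WT open, circles for replicate 1, squares for replicate 2 and a line at the mean of the 2 arrays. Cerebellum arrays had 13 or 14 except WT female replicate 2 with 8, and rest-of-brain arrays had 5 to 7 except KO female replicate 1 with 10.

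The homeobox pair gave the clearest division. Barhl1 1418812_a_at was detected on every one of the 4 KO and 4 WT cerebellum arrays, and on none of the 8 rest-of-brain arrays. Barhl2 1437555_at gave the same calls on all 16 arrays. WT female cerebellum replicate 2, which lacked other granule cell probe sets, detected both. So did the 4 male cerebellum arrays, on which no brain stem probe set was detected. The part of tissue composition in this division was not tested. For each, Fisher's exact test (two-sided) gave p = 0.000155, the smallest that 8 against 8 arrays allow, with an adjusted p of 0.0501 when all 45101 probe sets were corrected together and of 0.0043 over the 3873 probe sets detected on 5 to 11 arrays, the range in which this test can fall below 0.05. A division of 8 against 0 in this direction was shown by 0.0554% of all probe sets, and by 2 of the 16 here. The Barhl1 result rests on a probe set of a class designed on several transcripts of a gene, while 1418811_at, the other one for Barhl1, was detected nowhere.

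Pax6 depended on the probe set. Detection by 1419271_at was uniform, whereas 1452526_a_at was detected on 7 of 8 cerebellum arrays, all except WT female replicate 2, and on 0 of 8 rest-of-brain arrays, with KO female replicate 1 marginal (Fisher's exact p = 0.0014, adjusted p = 0.161 over all and 0.0138 over the testable probe sets). With marginal values counted as detected its adjusted p over the testable probe sets was 0.0547, and without the 3 cerebellum arrays with brain stem genes it was 0.0606, with fewer arrays compared. Without WT female cerebellum replicate 2 it was 0.00288, and without both arrays that stand apart 0.00656. That replicate is its only cerebellum array without a call, so these lower values are no separate support. Probe set 1437816_at was detected on 4 cerebellum arrays, KO female replicate 2, KO male replicate 1 and both WT males, and on 0 rest-of-brain arrays (Fisher's exact p = 0.0769). In 1456342_at all 8 cerebellum arrays were positive and 4 of 8 in the rest of brain, 3 KO and 1 WT (Fisher's exact p = 0.0769). The last, 1425960_s_at, was detected on WT male cerebellum replicate 1 alone. Taking any 1 probe set as enough for a gene, Pax6 was detected on all arrays of both brain parts.

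Eomes and Crtam were detected on most cerebellum arrays and few others. Eomes 1426001_at was detected on 7 of 8 cerebellum arrays and on 1 of 8 in the rest of brain, the exceptions being WT female cerebellum replicate 2 and KO female rest of brain replicate 1 (Fisher's exact p = 0.0101, adjusted p = 0.590 over all and 0.0507 over the testable probe sets). The exceptions were the arrays that stand apart, which were picked in part by such calls. Over the testable probe sets the adjusted Fisher's exact p of 1426001_at was 0.0116 without the first, 0.0152 without the second and 0.00656 without both. Leaving out the exceptions favours a lower p, so these values are no separate support. Eomes 1435172_at was detected on the same 7 cerebellum arrays but on 3 of 8 in the rest of brain, all of them KO (Fisher's exact p = 0.119, adjusted p = 0.305 over the testable probe sets, and 0.0674 without both arrays). Crtam 1449903_at was detected on 7 of 8 cerebellum arrays, missing from WT female replicate 2, and on 2 of 8 in the rest of brain, KO female replicate 1 and WT male replicate 2 (Fisher's exact p = 0.0406, adjusted p = 1 over all and 0.126 over the testable probe sets). Without WT female cerebellum replicate 2 its adjusted Fisher's exact p was 0.0371, and without both arrays 0.0232. The first is its missing cerebellum array and the other holds a rest-of-brain call, so these values are no separate support. The T cell markers Cd3e, Cd3g, Cd4, Cd8b1 and Cd2 were detected on 0 of 16 arrays. Of the 11 probe sets for T cell genes, 9 were detected on no array. The other 2 were for Cd8a, with 1444078_at on 5 cerebellum and 2 rest-of-brain arrays and 1451673_at on 5 and 5, so that Cd8a was detected on 13 of 16 arrays in all.

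Atoh1, the progenitor factor, was the least regular. Its probe set 1449822_at was detected on 4 of 8 cerebellum arrays, 3 KO and 1 WT, and on 2 of 8 in the rest of brain, the first female replicate of KO and of WT (Fisher's exact p = 0.608). KO male rest of brain replicate 2 was marginal. Detected and undetected arrays occurred in both brain parts and in both genotypes.

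In all, 3 granule cell probe sets, Barhl1, Barhl2 and Pax6 1452526_a_at, were called as detected more often in cerebellum (called higher, for short) among the testable probe sets, 7 of which belong to these genes. The background was 5.55% of the testable probe sets called in that direction, 215 of 3873. In both directions together 662 of the 3873 were called, so calls lower in cerebellum were the commoner ones. After correction over all probe sets, 0 were called for any gene (0% background), although 140 divided the brain parts completely, 5 granule cell probe sets had an unadjusted p under 0.05, and 1247 of all probe sets did. Leaving out both arrays that stand apart brought the number called over the testable probe sets to 5, but these arrays were picked in part by the same calls. Since granule cell genes were chosen for the tissue they mark, these counts describe the list and are no independent support for its name.

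KO against WT was the comparison for which the arrays were made. Fisher's exact test over the 8 KO and 8 WT arrays called 0 of the 16 probe sets in either correction (0% of all probe sets). An unadjusted p under 0.05 was found for 0 of them, against 38 of all probe sets. With so few, correction over all probe sets could not call even a complete division. The lowest value belonged to Eomes 1435172_at, which was detected on 7 KO and 3 WT arrays (Fisher's exact p = 0.119). By gene, Crtam was detected on 5 KO and 4 WT arrays and Atoh1 on 4 KO and 2 WT arrays. Barhl1 and Barhl2 were detected on 4 KO and 4 WT arrays each, and Neurod1, Exph5, Cadps2 and Pax6 on 8 of each. A miss at this number of arrays does not show that KO and WT had equal levels, and a level change in a gene detected everywhere could not appear in these values.

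Within the cerebellum, 4 KO arrays were compared with 4 WT arrays, for which the smallest p of Fisher's exact test is 0.0286. Calls were made for 0 of the 16 probe sets (0% of all) and 0 reached an unadjusted p under 0.05, against 17 of all probe sets. With so few, correction over all 45101 probe sets could not call even a complete division. The 0 calls therefore say nothing on whether KO and WT cerebellum differed. Atoh1 had the largest difference, with detection on 3 KO and 1 WT cerebellum arrays (Fisher's exact p = 0.486). Crtam, both Eomes probe sets and Pax6 1452526_a_at were each detected on 4 KO and 3 WT cerebellum arrays, and in every case the WT array without a call was female replicate 2.

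With 2 KO and 2 WT arrays in each sex and brain part no exact test can go below 0.333, so complete differences were only counted. In female cerebellum none of the 16 probe sets was detected on both arrays of one genotype and neither of the other, where 1.45% of all probe sets were. There 5 were detected on more KO than WT arrays, and 4 of these lacked a call only on WT replicate 2. Brain stem markers differed between the same arrays (7 and 6 detected in KO, against 3 and 0 in WT, of 7), and their part in these counts was not tested. In male cerebellum, where the background was 1.1%, Atoh1 was detected on each KO array and on no WT array, while Pax6 1437816_at and 1425960_s_at were each detected on 1 array fewer in KO. In female rest of brain, with a background of 0.94%, Eomes 1435172_at and Pax6 1456342_at were detected on each KO array and on no WT array, but WT replicate 2 was marginal for each. With marginal values counted as detected Atoh1 was the only complete difference left. In male rest of brain there was none, with a background of 1.02%.

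Sex gave no call either. Over 8 female and 8 male arrays Fisher's exact test called 0 of the 16 probe sets (0% of all), and 0 had an unadjusted p under 0.05, against 129 of all probe sets. With so few, correction over all 45101 probe sets could not call even a complete division. The 0 calls therefore say nothing on whether the sexes differed. Atoh1 was detected on 4 female and 2 male arrays.

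Several genes shared the calls of the granule cell genes array by array. Identical calls on all 16 arrays were found for 24 other probe sets with Barhl1 and with Barhl2, each counting the other, and these included Zic2, a zinc-finger factor of granule cells, and Pax3, a paired-box factor of the dorsal neural tube. Eomes 1426001_at shared its calls with 14 others, among them the granule cell cadherin Fat2 and the Purkinje cell gene Pcp2. Pax6 1452526_a_at shared its calls with 61 others, which included the phosphodiesterase gene Pde1c and the homeobox gene Tlx3. Crtam shared its calls with 5 others, of which 1 was a probe set of Gabra6, the GABA-A receptor subunit of granule cells. The patterns of Eomes, Pax6 and Crtam all have WT female cerebellum replicate 2 as their missing cerebellum array. For Atoh1, Eomes 1435172_at and Pax6 1437816_at there was no such probe set.

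The lists around these genes showed how far the difference between brain parts extended. Of 59 probe sets for 21 genes of mature granule cells, 3 were called higher in cerebellum and 0 lower (testable probe sets): Zic2, detected on 8 cerebellum and 0 rest-of-brain arrays, and 2 probe sets of Pde1c, on 7 and 0 and on 6 and 0, while Pde1c 1436251_at was detected on all 16. Fat2 and 1 of 3 probe sets of the bHLH gene Neurod2 (1418995_at) were on 7 cerebellum arrays and 1 other, which missed the threshold with an adjusted Fisher's exact p of 0.0507. Neurod2 1435411_at was on all 16 arrays and 1444362_at on none. Of 34 probe sets for 14 genes of progenitors and migrating cells, Tlx3 (7 and 0) and the hedgehog-pathway factor Gli1 (8 and 2) were called higher, and 1421399_at of the zinc-finger factor Insm1 lower (1 and 8), while Insm1 1455865_at was on 6 and 8. None of 9 unipolar brush cell probe sets was called. The median difference was 0 arrays for mature granule cells, against 3 for the genes described here and 0 for all probe sets. Of the mature granule cell probe sets, 35 were detected on all 16 arrays and 5 on none, which holds that median at 0. On more cerebellum arrays there were 16 and on fewer 3, with 85.6% of calls detected in cerebellum and 71.8% in the rest of brain.

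Relatives and partners of the granule cell genes went both ways. Of 49 probe sets for 24 genes, 3 were called higher in cerebellum and 2 lower. Pax3, of the same family as Pax6, was higher with both of its divided probe sets (8 and 0, and 8 and 2). Tbr1, the T-box relative of Eomes and a factor of deep-layer cortical neurons, was detected on 0 cerebellum and 8 rest-of-brain arrays. The Rab27 GTPases that Exph5 binds differed in direction, with Rab27a 1425284_a_at on 6 cerebellum and 0 rest-of-brain arrays and Rab27b 1417215_at on 1 and 8. Other probe sets of either gene showed no such difference: Rab27a 1429123_at and Rab27b 1417214_at were detected on all 16 arrays.

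Markers of other cells served to place the tissue. Of 11 forebrain probe sets 6 were called lower in cerebellum, among them 1 probe set each of Emx1, Dlx1 and Lhx6, detected on 0 cerebellum and 8 rest-of-brain arrays. Among all 3873 testable probe sets 662 were called in either direction, and 215 of these were higher in cerebellum. The 13 Purkinje cell probe sets gave no call, with 2 Pcp2 probe sets on 7 cerebellum and 1 rest-of-brain arrays and 1 on 8 and 4. Of 8 probe sets for Golgi cells and molecular layer interneurons 1 was called lower, Grm2 (2 and 8). Astrocyte, oligodendrocyte, brain stem, choroid plexus and T cell lists had 0 calls by Fisher's exact test between brain parts, although the brain stem genes were concentrated on the KO female cerebellum arrays as given above. No probe set on any of these lists was called between KO and WT.

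**Figure D3:**
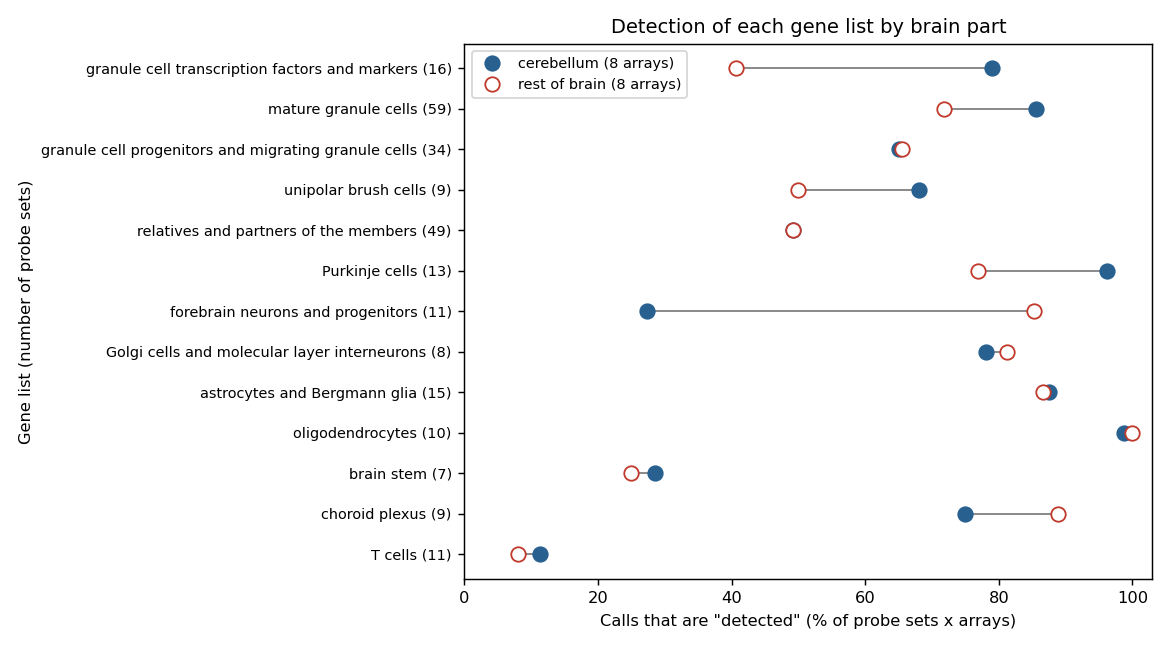
Share of calls that are detected (percent of probe sets times arrays) for each gene list, in cerebellum (filled) and rest of brain (open), with the number of probe sets in parentheses. The granule cell genes described here had 78.9% in cerebellum and 40.6% in the rest of brain, and the forebrain list had 27.3% and 85.2%.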

How the data were processed

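RNA from cerebellum and rest of brain of SINE KO and WT mice was labelled with biotin and hybridised to Affymetrix 3′ expression arrays. The methods name a human array, but the probe sets are those of a mouse array. Per the labels the authors used MAS5, and the methods also name other software. The deposited values are of no intensity or log unit: each is 1 of 5 numbers, treated here as detection levels, and level 2 (values above 5e-38) was read as detected. Of all values 59.7% were at level 2, 1.51% at level 1, and 0.267% and 1.19% at the levels below 0, and 0 columns were left unmapped. Arrays carry no read depth. Their number limits the precision, and so does the lack of intensities in the values. Symbols came from the platform annotation (34958 probe sets with 1 symbol, 932 with several, 9211 with none).

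Detection was compared with Fisher's exact test per probe set and Benjamini-Hochberg adjustment, over all 45101 probe sets and over the 3873 testable ones, called at an adjusted p under 0.05, in Python 3.11.15 (scipy 1.17.1, pandas 2.3.3, numpy 2.4.6). Plots were drawn in matplotlib 3.10.9. The test was tried on simulated calls. The members and gene lists were chosen with earlier results of these data known. All members were named. Of other lists, genes differing by 6 or more arrays between brain parts could be named, and likeness was the same call on all 16 arrays. Alternatives counted marginal calls, dropped values below 0 or the _x_at, _s_at and _a_at probe sets, collapsed to genes, used subsets, left out each array in turn or paired replicate numbers.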

Additional observations from a re-analysis of the deposited data

Results flagged for a closer look

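Of 24 groups of arrays and quantities looked at, 8 held an array far from the others. The limit used flags about 1 in 20 groups by chance for continuous values. Its rate for counts with ties, such as most of these, was not tested. WT female cerebellum replicate 2 was low in granule cell probe sets, with 8 of 16, both among the cerebellum arrays and among the WT cerebellum arrays. The same array had 42 of 59 mature granule cell probe sets, the fewest in cerebellum, and 9 of 13 Purkinje cell probe sets, low in both groupings. KO female rest of brain replicate 1 was high, with 10 granule cell probe sets. KO male cerebellum replicate 1 had 14 where the other KO cerebellum arrays had 13. WT female rest of brain replicate 2 had the most detected probe sets of the WT rest-of-brain arrays, 28155.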

How the results depend on the processing

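Without any single array, the calls over all probe sets for cerebellum against rest of brain ranged from 2 to 3 (0 with all arrays), those over the testable probe sets from 3 to 5 (3), the complete divisions from 2 to 3 (2), and the complete KO against WT differences within sex and brain part from 3 to 7 (3), with 7 without WT female cerebellum replicate 1 and 5 without KO female rest of brain replicate 2. The highest count of calls, 3 over all and 5 over the testable probe sets, came without WT female cerebellum replicate 2. Over all probe sets, 2 were called with probe sets holding values below 0 left out, 1 without probe sets of the suffixes _x_at, _s_at and _a_at and 2 by gene. Over the testable probe sets, 1 was called without those suffixes, 0 in females, 0 in males, 0 in KO and 0 in WT alone, where fewer arrays were compared, and 5 without both arrays that stand apart, an alternative chosen after seeing the data. Complete divisions numbered 1 without those suffixes, since the Barhl1 probe set is an _a_at one, 4 in males and 4 without both arrays. Complete KO against WT differences numbered 1 with marginal values counted. Leaving out the 3 cerebellum arrays with brain stem genes, also chosen after seeing the data, gave 2 calls over the testable probe sets, 2 complete divisions and 3 complete KO against WT differences. No direction reversed, and KO against WT and female against male gave 0 calls under every alternative run. As given above, correction over all probe sets could not call even a complete division in these comparisons with all arrays. The 0 calls therefore say nothing on whether KO and WT or the sexes differed.

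Replicate numbers showed little pairing in the calls. Correlations of replicate differences were -0.0181 to 0.0434 between brain parts, -0.00464 to 0.0647 between genotypes and -0.0174 to 0.0600 between sexes. Most probe sets were detected on all arrays or on none, so these values cannot tell whether same-numbered arrays shared a mouse. With the replicate block there were 4 calls over the testable probe sets and 0 over all for cerebellum against rest of brain, 2 complete divisions and 0 calls for KO against WT. Eomes 1426001_at then had an adjusted p of 0.0485 in the exact sign test over the testable probe sets. In the same test Barhl1 1418812_a_at, Barhl2 1437555_at and Pax6 1452526_a_at each had 0.0468, close to the threshold. By Fisher's exact test without the block they had 0.0043, 0.0043 and 0.0138. Detection levels cannot show changes above or below the detection limit.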

Other observations

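Some choroid plexus and brain stem probe sets were detected unevenly across the dissected tissues. The transthyretin probe set 1451580_a_at (Ttr) and the klotho probe set 1423400_at (Kl) were each detected on 4 of 8 cerebellum and 8 of 8 rest-of-brain arrays (Fisher's exact p = 0.0769, two-sided). The other 3 Ttr probe sets and both Clic6 probe sets were detected on all arrays, Folr1 on 6 cerebellum and 8 rest-of-brain arrays, and Kl 1451892_at on none. Of the 9 choroid plexus probe sets, 5 were thus on all 16 arrays, and 0 were called between brain parts. Tph2, the serotonin-synthesis enzyme of brain stem neurons, was detected on 3 cerebellum and 7 rest-of-brain arrays (Fisher's exact p = 0.119, two-sided), and the serotonin transporter Slc6a4 on 2 cerebellum arrays and 0 others. The cerebellum arrays with Tph2 were both KO females and WT female replicate 1, and those with Slc6a4 were the 2 KO females. Hoxb5 and Hoxa5 1443803_x_at, of the homeobox clusters that mark hindbrain and spinal cord, were also detected on the 2 KO female cerebellum arrays and on no other array.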
